A study of Rattus norvegicus with 15 samples.

Results

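The genes described here are Cirbp, Rbm3, Clk1, Clk4, Tra2a and Tra2b, 6 rat genes that act in the response of cells to temperature and in pre-mRNA splicing. They were chosen by name from the StringTie table of FPKM values (fragments per kilobase of transcript, scaled to the mapped fragments of the library). Every transcript carrying the gene's name was taken, together with every unnamed transcript of a locus that held only that name, and the FPKM values were summed per gene and library. By this rule 33 of 85322 transcripts belonged to the 6 genes of 37367 gene sums, namely 1 for Cirbp, 8 for Rbm3, 4 for Clk1, 1 for Clk4, 16 for Tra2a and 3 for Tra2b.

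The libraries came from primary brain microvascular endothelial cells (BMECs) of Sprague-Dawley rat littermates of both sexes, aged 2 to 3 weeks, and were made from poly-A RNA. The 5 groups of 3 libraries were cells kept for 12 h without x-rays (control), and cells collected 12 h or 24 h after a single exposure to 5 Gy or 20 Gy from a linear accelerator. There was no unexposed culture at 24 h, so in every comparison of a 24 h group the time after exposure and the time in culture cannot be told apart. The study calls the 3 libraries of a group biological replicates, and nothing ties them to single animals, so the p-values measure the spread between these libraries.

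Cirbp (cold-inducible RNA-binding protein) and Rbm3 (RNA-binding motif protein 3) are small glycine-rich RNA-binding proteins whose mRNAs are known to rise under mild cooling and to fall under heat. Clk1 and Clk4 are CDC2-like kinases that phosphorylate the serine- and arginine-rich (SR) splicing proteins, and their activity is known to be higher at lower body temperatures. Tra2a and Tra2b are SR-like splicing activators. Each of these gene families is known for transcripts that keep an intron or take in an additional exon and are then held in the nucleus or degraded, so single transcripts are given beside the gene sums.

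The RefSeq promoter table (build GRCr8) held a window for 5 of the 6 genes, and none for Tra2a. The windows of Cirbp and Rbm3, whose levels fell, and of Clk1, whose level rose, are printed because these genes carry the largest changes below. Each is the 250 bases before the annotated start, 5′ to 3′ on the gene's strand, and capitals mark the letters TCCCCGCC, an octamer described upstream of Cirbp as a mild cold response element.
Cirbp, chr7:10189476-10189725, minus strand: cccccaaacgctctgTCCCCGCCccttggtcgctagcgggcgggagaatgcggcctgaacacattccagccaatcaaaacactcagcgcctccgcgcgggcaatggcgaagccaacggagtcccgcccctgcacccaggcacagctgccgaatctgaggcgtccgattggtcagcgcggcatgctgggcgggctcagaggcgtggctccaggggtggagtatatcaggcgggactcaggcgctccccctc
Rbm3, chrX:17020655-17020904, plus strand: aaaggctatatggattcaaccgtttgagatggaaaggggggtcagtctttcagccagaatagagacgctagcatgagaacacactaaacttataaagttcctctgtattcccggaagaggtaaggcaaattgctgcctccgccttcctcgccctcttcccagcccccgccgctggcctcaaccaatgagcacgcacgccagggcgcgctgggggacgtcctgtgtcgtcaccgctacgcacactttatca
Clk1, chr9:67453181-67453430, minus strand: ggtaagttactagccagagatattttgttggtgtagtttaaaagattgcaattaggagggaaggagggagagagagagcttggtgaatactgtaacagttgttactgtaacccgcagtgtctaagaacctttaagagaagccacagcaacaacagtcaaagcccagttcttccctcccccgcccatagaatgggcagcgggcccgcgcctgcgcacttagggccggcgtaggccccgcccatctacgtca

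On both strands, TCCCCGCC was found once, 235 to 228 bases before the Cirbp start, where it overlapped a GC box (GGGCGG, here on the minus strand). It was not found in the windows of Rbm3, Clk1, Clk4 (which has 2 starts, 1282 bases apart) or Tra2b. Of 33465 promoter windows of the same length, 4.2% held this octamer and 30.5% held a GC box. The 2 pairings of a heat shock element's unit, GAANNTTC and TTCNNGAA, were in 7.2% and 7.5% of all windows and in none of those of the 5 genes. GC content was 67.2% for Cirbp, 54.8% for Rbm3 and 52.0% for Clk1, beside a median of 51.2% over all windows. These matches describe the letters only, in a newer build than the Rnor_6.0 build of the expression table.

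Read from the steps between low FPKM values, the aligned depth of the libraries was 5.44 to 7.49 gigabases, so 1 FPKM stood for a mean coverage of 5.44 to 7.49 reads per base. Replicates of a group correlated at 0.963 to 0.975 (Pearson's r of log2(FPKM + 1) over genes). Of 16 endothelial markers 14 were in the table, and 9 or 10 of them, including Cdh5, Tek, Tie1, Cldn5, Vwf and Erg, had a group mean under 0.5 FPKM in every group, so the labelled cell type rested on few of its markers. The summed endothelial markers ranged from 28.3 to 35.1 FPKM in the control and from 18.5 to 30.8 FPKM in the exposed libraries, and most of the sum was Slc2a1 (mean of 23.6 FPKM in the control). The sum of 10 pericyte and smooth muscle markers was larger, at 92.2 to 100 FPKM in the control, 76.4 to 94.6 at 12 h and 40.8 to 68.1 at 24 h. It was mostly Pdgfrb (44.5 FPKM in the control, 18.2 and 11.7 at 24 h) and Tagln (36.0, then 25.6 and 36.6). Kcnj8 and Abcc9 were at 0 and Rgs5 at most at 0.0758 FPKM (group means). Myh11 rose from 0.0608 FPKM in the control to 1.29 and 1.18 at 24 h. Notch3 rose from 0.153 FPKM to 0.832 and 1.78 at 12 h. Of 6 tested, 1 and 2 were called higher at 12 h (16.7% and 33.3%, beside 4.98% and 4.90% of all genes) and none lower. At 24 h 1 (16.7%) was higher and 2 (33.3%) lower with each dose. All genes gave 20.5% and 20.8% with 5 Gy, and 17.0% and 23.3% with 20 Gy. All 8 fibroblast markers were in the table and 7 had a mean of 0.5 FPKM or more. Their sum fell from 2215 to 2537 FPKM in the control to 1718 to 2149 FPKM at 12 h and 796 to 932 FPKM at 24 h, and the later fall was mainly that of Col1a1 (mean of 516 FPKM in the control, libraries of 24.4 to 42.0 at 24 h), Col1a2 (414, then 18.6 to 42.5) and Col3a1 (535, then 23.5 to 48.2). Dcn and Lum were also called lower at 24 h, while Fbln1 (502 FPKM in the control, 581 and 567 at 24 h) and Pdgfra (52.1, then 60.8 and 51.6) were not called. The sum of 6 astrocyte markers was 517 to 764 FPKM in the control, 467 to 1177 FPKM at 12 h and 323 to 436 FPKM at 24 h, and most of it was Gja1, a gap junction gene with a mean of 623 FPKM in the control. Gfap was under 0.5 FPKM and Aqp4 at 0 in all groups. Gja1 and Slc1a2 were called lower at 24 h with each dose, and Aldh1l1 was called higher in all 4 exposed groups (9.52 FPKM in the control, 20.8 to 24.1 in the exposed groups). Replicate 3 of the control and of both 24 h groups stood apart in how FPKM was divided among the transcripts of Rbm3 or Tra2b, and the transcripts that the results turn on are given with and without these 3 libraries. They were picked after seeing these values, so for Rbm3 and Tra2b the results without them are no independent check. The part of cell composition in the results was not tested, and fewer cells of a type cannot be told apart from less RNA per cell.

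Of the 6 genes, 4 (Rbm3, Clk1, Tra2a and Tra2b) reached a mean of 0.5 FPKM over the 15 libraries and could be tested by the rule. The test was limma on log2(FPKM + 1) over 17895 genes, and a gene was called where the Benjamini-Hochberg adjusted p was under 0.05 and the fold change at least 1.5. Clk1 was called higher and Rbm3 lower than control in all 4 exposed groups, and Tra2a and Tra2b were called in none. The background of calls at 12 h was 4.98% of genes higher and 4.96% lower with 5 Gy, and 4.90% and 3.64% with 20 Gy. Later, at 24 h, it was 20.5% and 20.8% with 5 Gy, and 17.0% and 23.3% with 20 Gy. At 24 h a call therefore set a gene less apart than at 12 h.

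**Figure D1:**
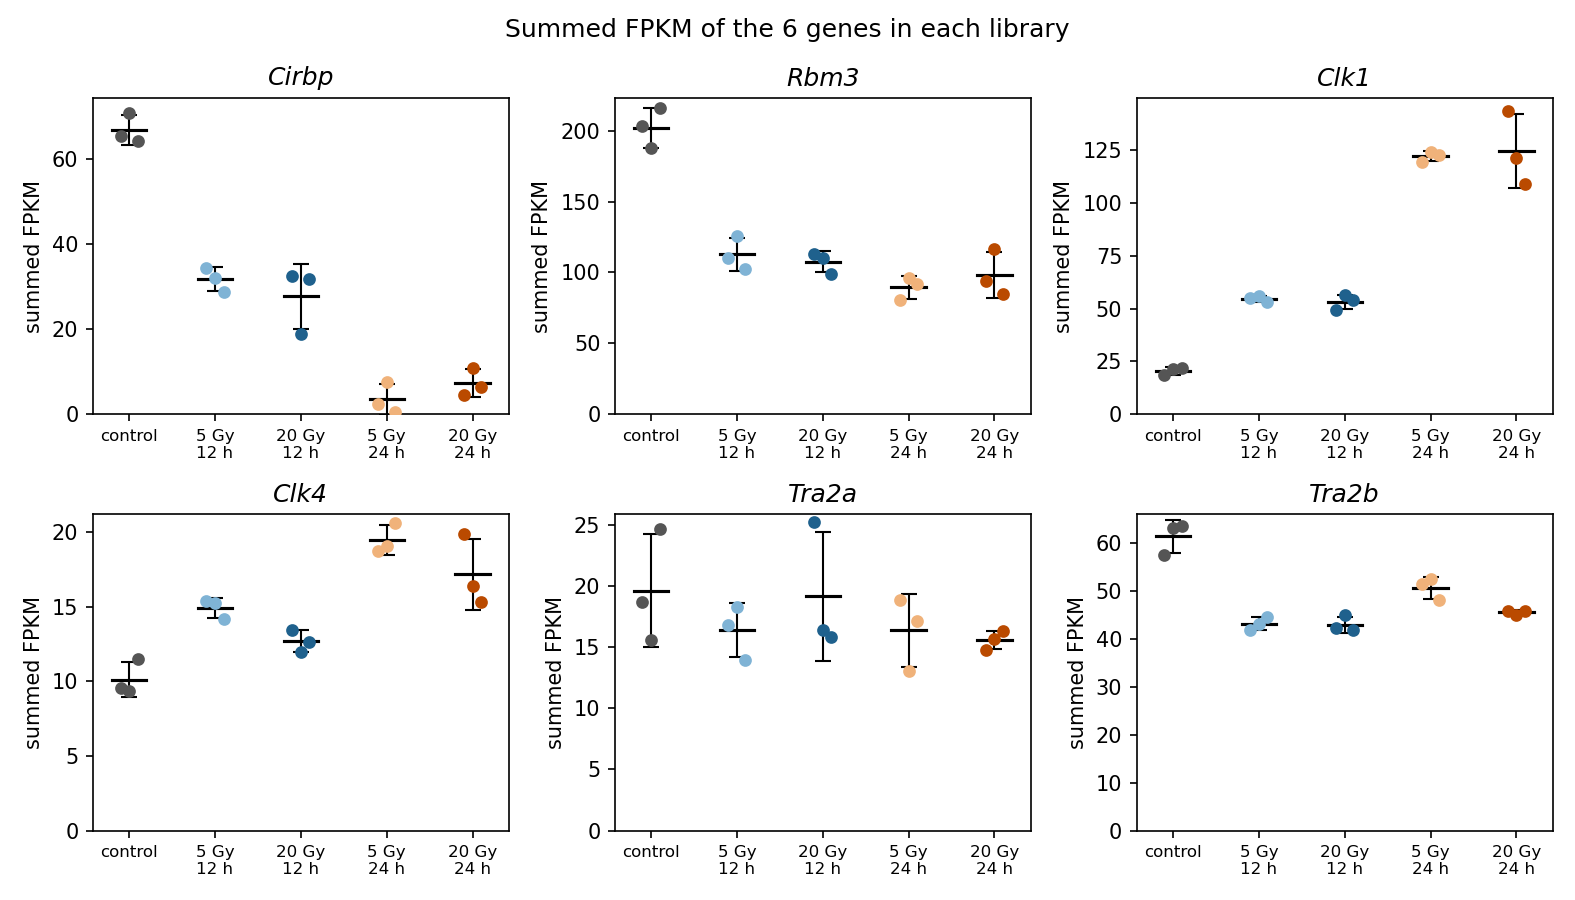
Summed FPKM (linear axis from 0) of each gene in each of the 15 libraries, with points for replicates 1 to 3 and bars for the mean ± SD of 3 libraries. Cirbp and Clk4 use the wider assignment of unnamed transcripts described in the text, and the lower SD bar of Cirbp at 24 h after 5 Gy is cut at 0. The control libraries of Cirbp and Rbm3 lie above all exposed libraries, and those of Clk1 and Clk4 below them.

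Rbm3, at chrX:15098904-15102340 on the plus strand of Rnor_6.0, was the most abundant of the 6 genes per length in the control. Its summed FPKM was 203, 187 and 216 in the control, and at 12 h it was 110, 126 and 102 with 5 Gy and 113, 110 and 99.1 with 20 Gy. By 24 h it was 80.6, 95.9 and 91.8 after 5 Gy, and 93.8, 116 and 84.5 after 20 Gy. No exposed library reached the lowest control library. Rbm3 was lower by 0.84 ± 0.12 (SE, log2(FPKM + 1) scale) at 12 h after 5 Gy (fold change 1.79, limma adjusted p = 0.000397) and by 0.90 ± 0.12 after 20 Gy (adjusted p = 0.000290). At 24 h its log2 fold change was -1.17 ± 0.12 after 5 Gy (adjusted p = 3.09e-06) and -1.04 ± 0.12 after 20 Gy (adjusted p = 8.77e-06).

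In order of the mean, Rbm3 was highest in the control at 202 FPKM, then 113 (12 h, 5 Gy), 107 (12 h, 20 Gy), 98.2 (24 h, 20 Gy) and 89.4 (24 h, 5 Gy). Each exposed group overlapped its neighbour in this order. From 12 h to 24 h the log2 fold change of Rbm3 was -0.33 ± 0.12 after 5 Gy (limma adjusted p = 0.0323) and -0.14 ± 0.12 after 20 Gy (adjusted p = 0.343), and both were below the 1.5-fold threshold.

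Cirbp, at chr7:12401207-12405022 on the minus strand, could not be followed by its named transcript. That transcript, ENSRNOT00000021648, had a mean of 0.209 FPKM, and its locus also held the names Efna2 and RGD1562114 with 12 unnamed transcripts. An unnamed transcript, MSTRG.20739.15, also had 7 exons, shared the start of Cirbp, stopped 394 bases short of its annotated 3′ end and overlapped no other named gene. Both were therefore summed, a wider assignment chosen after the table was seen. MSTRG.20739.15 made up over 99% of this sum in all libraries but 2, replicate 3 at 24 h after 5 Gy (92.3%) and after 20 Gy (61.7%).

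With the wider assignment Cirbp was at 65.3, 70.7 and 64.0 FPKM in the control, and at 12 h it was at 34.3, 32.0 and 28.8 with 5 Gy and 32.4, 18.9 and 31.7 with 20 Gy. At 24 h it was at 2.52, 7.57 and 0.564 FPKM after 5 Gy and at 4.58, 10.9 and 6.32 after 20 Gy. The control, 12 h and 24 h libraries formed 3 ranges that did not overlap, while the doses overlapped at each time. The log2 fold change at 24 h was -4.23 ± 0.46 after 5 Gy (limma adjusted p = 5.44e-06) and -3.10 ± 0.46 after 20 Gy (adjusted p = 8.20e-05). At 12 h it was -1.05 ± 0.46 after 5 Gy (adjusted p = 0.137) and -1.28 ± 0.46 after 20 Gy (adjusted p = 0.0783), which were not called. These tests share a spread over 5 groups that includes the scattered 24 h values, and with only the groups compared in the fit the adjusted p was 0.00188 after 5 Gy and 0.0115 after 20 Gy. Leaving out replicate 2 or replicate 3 of the group at 24 h after 5 Gy also made both 12 h differences pass the test, with adjusted p of 0.0180 to 0.0449. Those libraries held the highest and lowest Cirbp values of that group. They are not in the 12 h comparisons, so leaving either out changed the shared spread and not the differences. The 12 h results of the other refits with this assignment are not given here. From 12 h to 24 h Cirbp fell by 3.17 ± 0.46 on the log2 scale with 5 Gy (limma adjusted p = 7.80e-05) and by 1.83 ± 0.46 with 20 Gy (adjusted p = 0.00471), where 19.4% and 22.2% of genes were called lower. In the wider assignment 20.9% of 18074 genes were called higher and 20.9% lower at 24 h after 5 Gy, and 17.2% and 23.5% after 20 Gy.

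Other unnamed transcripts ran from Cirbp into RGD1562114, the gene downstream. Summing every transcript over the span of Cirbp gave 73.4, 77.8 and 73.4 FPKM in the control, and at 12 h 47.5, 52.5 and 48.9 with 5 Gy and 49.5, 36.9 and 53.7 with 20 Gy. At 24 h this sum ran from 13.5 to 21.2 FPKM with 5 Gy and from 11.9 to 22.0 FPKM with 20 Gy. On the log2 scale the difference over the span was -0.58 ± 0.20 (limma adjusted p = 0.0613, not called) and -0.69 ± 0.20 (adjusted p = 0.0351) at 12 h after 5 Gy and 20 Gy, and -2.13 ± 0.20 and -2.08 ± 0.20 at 24 h (adjusted p = 1.52e-06 and 2.03e-06). The fall at 24 h after 5 Gy was thus smaller with the read-through transcripts included, by more than 2 on the log2 scale. Among all genes of that fit 3.73% were called lower at 12 h with 20 Gy, and at 24 h 20.9% with 5 Gy and 23.5% with 20 Gy.

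**Figure D2:**
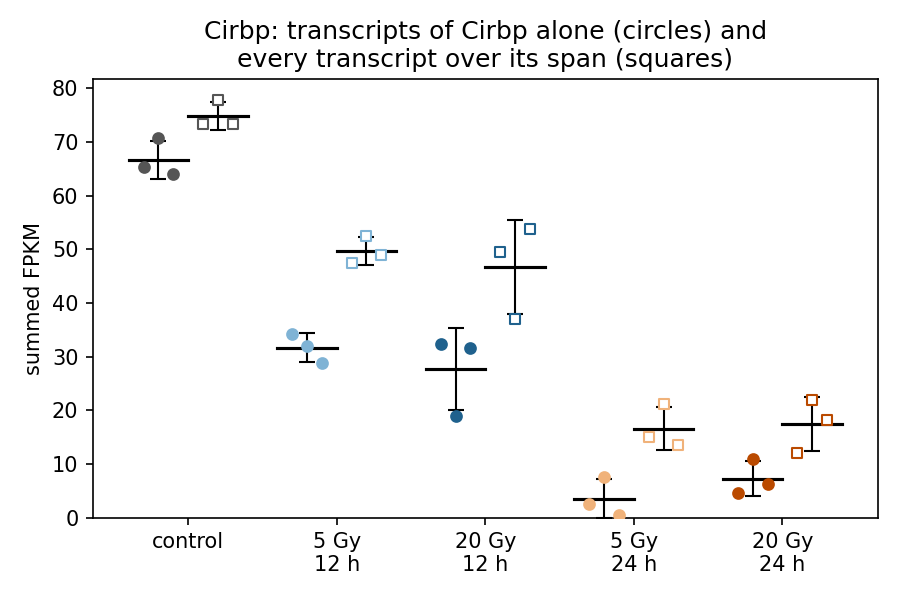
Summed FPKM of Cirbp (linear axis from 0) in each library, as circles for transcripts that overlap Cirbp alone and as squares for every transcript over its span, with bars for the mean ± SD of 3 libraries (cut at 0). Under both sums the control libraries are highest and the 24 h libraries lowest.

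Clk1, at chr9:65296778-65307995 on the minus strand, rose in steps with time. Its summed FPKM was 18.4, 21.2 and 22.0 in the control, and at 12 h it was 55.2, 55.9 and 53.1 with 5 Gy and 49.5, 56.2 and 53.9 with 20 Gy. The 24 h libraries were at 120, 124 and 123 FPKM after 5 Gy and 143, 121 and 109 after 20 Gy. The control, 12 h and 24 h libraries formed 3 separate ranges, and the doses overlapped within each time. Clk1 was higher than control by a log2 fold change of 1.38 ± 0.10 at 12 h after 5 Gy (limma adjusted p = 1.90e-06) and 1.33 ± 0.10 after 20 Gy (adjusted p = 2.34e-06). At 24 h the log2 fold change was 2.52 ± 0.10 after 5 Gy (adjusted p = 8.48e-10) and 2.54 ± 0.10 after 20 Gy (adjusted p = 8.06e-10).

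From 12 h to 24 h Clk1 rose by 1.14 ± 0.10 after 5 Gy (limma adjusted p = 7.72e-07) and by 1.20 ± 0.10 after 20 Gy (adjusted p = 5.14e-07) on the log2 scale. It was the single call among the 4 tested genes in these comparisons, against a background of 17.1% of genes higher and 19.3% lower after 5 Gy, and 14.1% higher and 22.1% lower after 20 Gy.

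Clk4, at chr10:36715565-36733133 on the plus strand, was listed at 0 in all 15 libraries by its named transcript. Its locus also held a small RNA name, and with that name set aside 8 unnamed transcripts were assigned to Clk4. Their sum was 9.53, 9.34 and 11.5 FPKM in the control, and at 12 h it was 15.4, 15.2 and 14.2 with 5 Gy and 13.5, 12.0 and 12.7 with 20 Gy. By 24 h it was 18.8, 19.1 and 20.6 FPKM after 5 Gy and 19.9, 16.4 and 15.3 after 20 Gy. No exposed library was as low as the highest control library. The log2 fold change was 0.52 ± 0.10 at 12 h after 5 Gy (limma adjusted p = 0.00352) and 0.30 ± 0.10 after 20 Gy (adjusted p = 0.0598), both below 1.5-fold. At 24 h it was 0.89 ± 0.10 after 5 Gy (adjusted p = 8.78e-06) and 0.71 ± 0.10 after 20 Gy (adjusted p = 6.55e-05), and both were called. Without replicate 3 of the control the difference at 12 h after 5 Gy was 0.61 (limma adjusted p = 0.00279) and was called, and it was also called without all 3 libraries that stood apart (adjusted p = 0.0036).

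Tra2b, at chr11:82373870-82392083 on the plus strand, was at 57.5, 63.3 and 63.7 FPKM in the control. It was at 42.0, 43.1 and 44.6 FPKM at 12 h after 5 Gy and at 42.3, 44.9 and 41.9 after 20 Gy. The 24 h libraries were at 51.4, 52.7 and 48.2 FPKM after 5 Gy and at 45.9, 45.1 and 46.0 after 20 Gy. All exposed libraries were below all control libraries. On the log2 scale the difference was -0.50 ± 0.06 at 12 h with each dose (limma adjusted p = 0.000158 and 0.000181), and at 24 h -0.27 ± 0.06 with 5 Gy (adjusted p = 0.00217) and -0.42 ± 0.06 with 20 Gy (adjusted p = 8.10e-05). These differences passed the adjusted p and not the 1.5-fold threshold, so they were not called.

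Tra2a, at chr4:78905380-78924181 on the minus strand, was at 18.6, 15.5 and 24.7 FPKM in the control. The exposed libraries ranged from 13.1 to 25.2 FPKM and overlapped the control in every group. The log2 fold change was -0.23 ± 0.20 and -0.04 ± 0.20 at 12 h with 5 Gy and 20 Gy, and -0.24 ± 0.20 and -0.29 ± 0.20 by 24 h (limma adjusted p = 0.219 to 0.926). The 95% interval at 24 h after 20 Gy ran from -0.72 to 0.13.

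**Figure D3:**
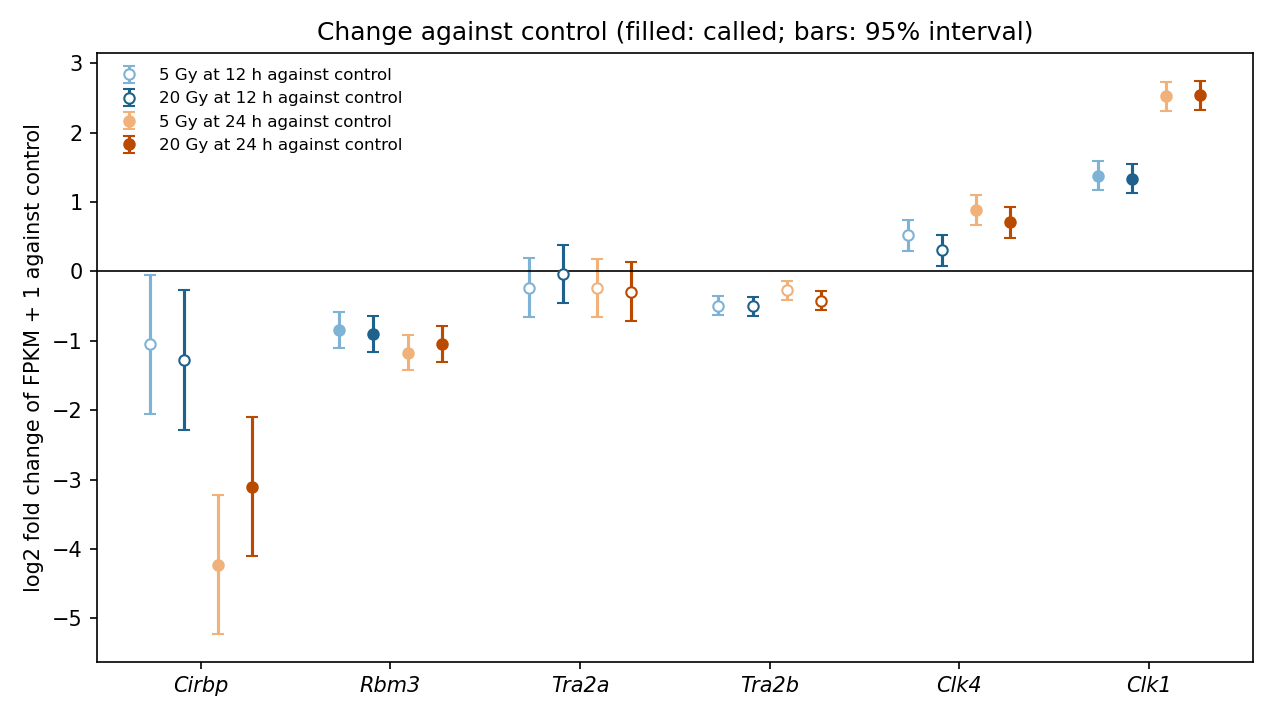
Log2 fold change of FPKM + 1 against control for each gene (linear axis of log2 values) with 95% intervals from limma, using the wider assignment for all genes. Filled points were called and open points were not. Clk1 at 24 h is highest at 2.52 and 2.54, and Cirbp at 24 h lowest at -4.23 and -3.10.

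The dose made no called difference in any of the 4 tested genes. At 12 h the log2 difference of 20 Gy against 5 Gy was -0.07 for Rbm3 (95% interval -0.32 to 0.19) and -0.04 for Clk1 (-0.25 to 0.17). The 24 h difference was 0.12 for Rbm3 (-0.13 to 0.38), 0.02 for Clk1 (-0.19 to 0.23) and -0.15 for Tra2b (-0.28 to -0.01, limma adjusted p = 0.206). Few genes of the table differed between doses, with 0.117% called higher and 0.00559% lower at 12 h, against 0.956% and 1.46% for the later time, 24 h. With the wider assignment the difference at 24 h was 1.12 for Cirbp (0.12 to 2.13, adjusted p = 0.196) and -0.18 for Clk4 (-0.40 to 0.04). The change from 12 h to 24 h differed between doses at an adjusted p under 0.05 in none of the 4 genes (limma adjusted p = 0.522 to 0.885, none under 0.05 before adjustment), beside 0.257% of all genes with a larger and 0.296% with a smaller change after 20 Gy.

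Of the 33 transcripts 24 reached a mean of 0.5 FPKM and were tested singly among 41932. At 12 h, 4 were called higher and 5 lower after 5 Gy, and 4 higher and 4 lower after 20 Gy. At 24 h, 3 were higher and 4 lower after 5 Gy, and 4 higher and 6 lower after 20 Gy. The background over all transcripts was 2.08% higher and 2.24% lower, then 1.92% and 1.77%, at 12 h, and 12.1% and 12.0%, then 10.6% and 13.6%, at 24 h. StringTie divides reads between overlapping transcripts, and how far this division moved the single values was not tested. Replicate 3 of both 24 h groups stood apart in this division for Rbm3, and replicate 3 of these groups and of the control for Tra2b. With these 3 libraries set aside the calls numbered 8, 8, 7 and 9 in the same 4 comparisons. These were in part other transcripts, as given below, so the similar counts do not show that the calls were stable. The share of all transcripts called in that fit was not computed. At 12 h after 20 Gy the 8 calls came down to 4 without replicate 3 of the control, and to 5 without its replicate 2 or without replicate 1 or 3 of the exposed group.

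The annotated 13-exon transcript, ENSRNOT00000030934 of 1774 bases, was at 1.38, 0.384 and 2.16 FPKM in the control, which was 7.47%, 1.81% and 9.82% of the gene's sum. At 12 h it was at 13.1, 16.2 and 20.6 FPKM after 5 Gy and 16.3, 17.1 and 21.4 after 20 Gy. At 24 h it was at 95.4, 117 and 115 FPKM after 5 Gy and 141, 120 and 108 after 20 Gy. Its mean share was 6.37% ± 4.12 (SD, n = 3 libraries) in the control, 30.5% ± 7.64 and 34.4% ± 4.82 at 12 h with 5 Gy and 20 Gy, and 89.3% ± 8.25 and 98.7% ± 0.214 by 24 h. The shares of each exposed group lay above those of the control (exact two-sided permutation test, p = 0.1, the smallest possible for 3 against 3 libraries). The log2 fold change of this transcript against control was 3.00 ± 0.26 and 3.13 ± 0.26 at 12 h, and 5.65 ± 0.26 and 5.82 ± 0.26 at 24 h (limma adjusted p = 8.51e-05, 5.22e-05, 8.54e-08 and 4.79e-08). Without the 3 libraries that stood apart it was called in all 4 comparisons, at 3.26, 3.40, 5.88 and 6.18.

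The other Clk1 transcripts had 1 exon fewer or were rare. MSTRG.23868.2 shared both ends with the annotated transcript, and had 12 exons and 869 more bases. It was at 10.8, 0.061 and 3.49 FPKM in the control, rose to between 15.3 and 31.6 FPKM in the 12 h libraries, and at 24 h was at 6.17 to 17.4 FPKM with 5 Gy and 0.805 to 1.06 FPKM with 20 Gy. It was called higher at 12 h only narrowly, with a log2 fold change of 2.64 ± 0.67 after 5 Gy (limma adjusted p = 0.0461) and 2.69 ± 0.67 after 20 Gy (adjusted p = 0.0466). MSTRG.23868.1 had 12 exons and 91 fewer bases inside the ends it shared with the annotated transcript. It was at 6.22, 20.8 and 16.3 FPKM in the control and at 0.252 to 1.28 FPKM at 24 h after 20 Gy, with a log2 fold change of -3.10 ± 0.84 (adjusted p = 0.0161). Without the 3 libraries neither transcript was called, with limma adjusted p of 0.163 and 0.167 for MSTRG.23868.2 at 12 h and 0.114 for MSTRG.23868.1 at 24 h after 20 Gy. Together the 12-exon transcripts made up 93.6% ± 4.12 of Clk1 in the control, and at 24 h 10.7% ± 8.25 after 5 Gy and 1.26% ± 0.214 after 20 Gy. In FPKM they were at 17.0 to 20.8 in the control and 28.3 to 42.1 at 12 h. At 24 h they were at 7.07 to 24.2 FPKM after 5 Gy and 1.31 to 2.15 FPKM after 20 Gy, ranges that did not overlap. Background knowledge of Clk1 holds that its full-length mRNA is made by removing introns that are kept, and by taking in an exon that is skipped, in the inactive transcripts. The table gives the number of exons and their summed length and no exon positions, so which exon or intron differed cannot be read from it.

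**Figure D4:**
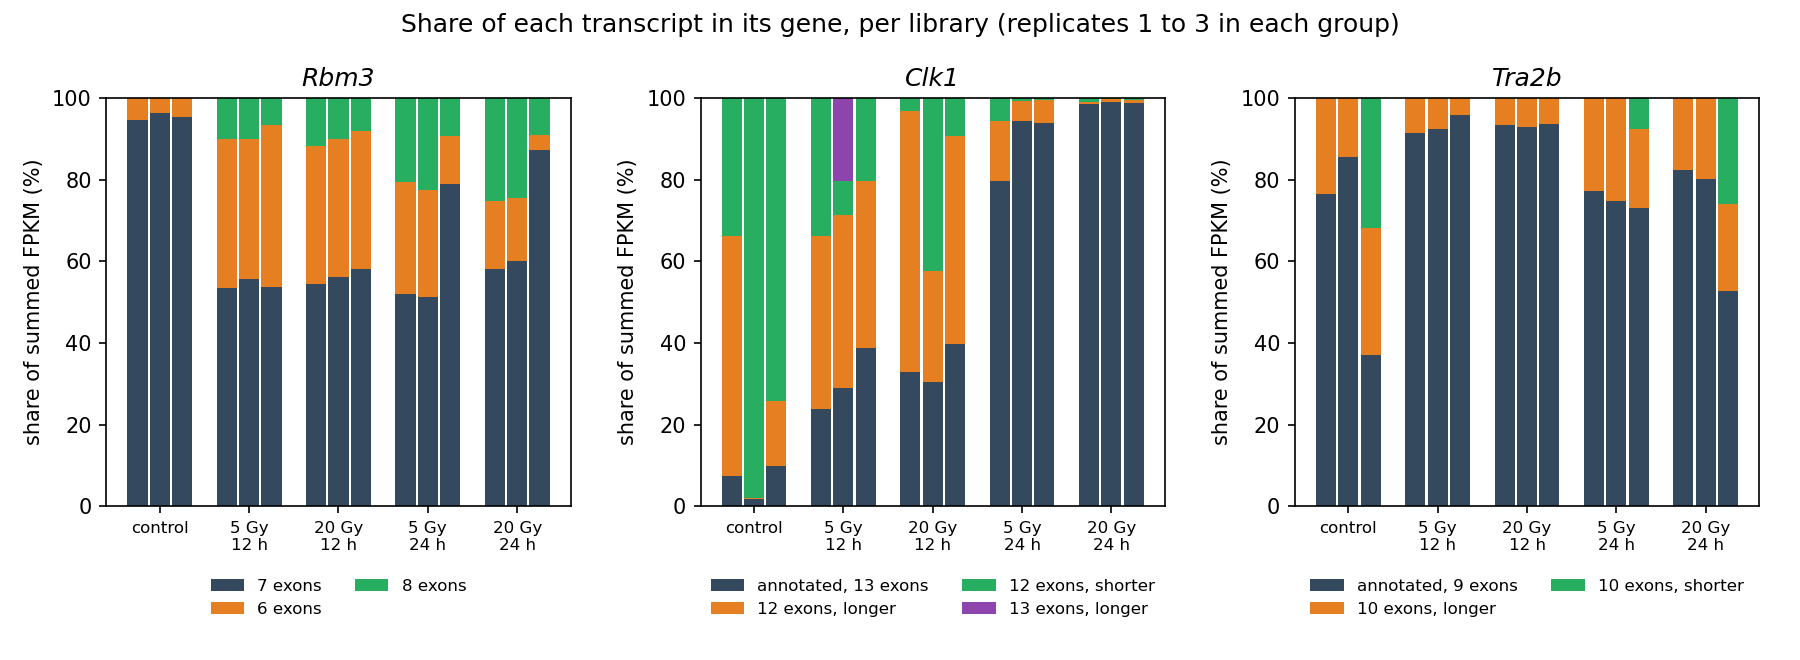
Share of summed FPKM (percent, bars from 0 to 100) of the transcripts of Rbm3, Clk1 and Tra2b in each library, with replicates 1 to 3 of a group side by side. In Clk1 the annotated transcript takes 79.8% to 98.9% in the 24 h libraries, in Rbm3 the 7-exon transcripts take over 94% in the control alone, and in Tra2b the annotated transcript takes over 91% in all 12 h libraries.

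Rbm3 had 3 classes of transcripts by exon number. The 7-exon transcripts were at 192, 180 and 206 FPKM in the control, between 55.0 and 70.0 FPKM in the 12 h libraries and between 42.0 and 73.7 FPKM in the 24 h libraries. They made up 95.4% ± 0.823 of the sum in the control, 54.3% ± 1.18 and 56.2% ± 1.87 at 12 h after 5 Gy and 20 Gy, and 60.8% ± 15.8 and 68.5% ± 16.2 at 24 h, where replicates 1 and 2 alone gave means of 51.7% and 59.1%. No exposed group overlapped the control (exact permutation test, p = 0.1, the smallest possible). The fall of Rbm3 was thus a fall of its 7-exon class, while the other classes were higher than in the control in all 12 h libraries.

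The 6-exon class, led by ENSRNOT00000087033 of 1770 bases, was at 10.6, 6.90 and 10.0 FPKM in the control. It was at 40.2, 43.0 and 40.6 FPKM at 12 h after 5 Gy and at 38.1, 37.3 and 33.5 after 20 Gy. The 24 h libraries were at 22.1, 25.2 and 10.6 FPKM after 5 Gy and 15.7, 17.8 and 3.11 after 20 Gy, where replicate 3 fell below the control. The log2 fold change of ENSRNOT00000087033 was 2.50 ± 0.44 and 2.27 ± 0.44 at 12 h (limma adjusted p = 0.0076 and 0.0144) and 1.37 ± 0.44 at 24 h after 5 Gy (adjusted p = 0.039), and at 24 h after 20 Gy it was 0.33 and not called. Without the 3 libraries it was called in all 4 comparisons, at 2.49, 2.25, 1.67 and 0.99. Replicate 3 of the 24 h groups was set aside for how Rbm3 was divided, so these 24 h calls add no separate support. This transcript had 1 exon fewer and 636 more bases than the annotated 7-exon transcript inside their shared ends.

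The 8-exon transcript of Rbm3, MSTRG.24676.7, had 1 exon and 269 bases more than the annotated 7-exon transcript inside their shared ends. It was nearly absent from the control, at 0.238, 0.080 and 0.185 FPKM. At 12 h it was at 11.1, 12.8 and 6.69 FPKM with 5 Gy and 13.3, 11.1 and 7.99 with 20 Gy. By 24 h it was at 16.6, 21.5 and 8.64 FPKM with 5 Gy and 23.6, 28.5 and 7.69 with 20 Gy. Its share of Rbm3 rose from 0.0819% ± 0.0374 to 8.92% ± 2.06 and 9.99% ± 1.88 at 12 h and to 17.5% ± 7.02 and 19.6% ± 9.09 at 24 h (exact permutation test, p = 0.1 for each group). On the log2 scale the difference was 3.22 ± 0.44 and 3.32 ± 0.44 at 12 h, and 3.74 ± 0.44 and 3.99 ± 0.44 at 24 h (limma adjusted p = 0.00144, 0.00137, 6.41e-05 and 4.05e-05). With those libraries set aside these were 3.23, 3.33, 4.10 and 4.54, all called, and the mean shares at 24 h were 21.5% and 24.8%. The 24 h libraries set aside held the lowest 24 h values of this transcript and were picked for how Rbm3 was divided. The larger 24 h values without them therefore add no separate support. An Rbm3 mRNA that takes in an additional exon with stop codons is known to be degraded, and whether this transcript is that one cannot be read from the table.

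Within the 7-exon class the table held 3 assembled transcripts whose lengths inside shared ends differed by at most 4 bases from the annotated one. In the control MSTRG.24676.2, MSTRG.24676.3 and MSTRG.24676.5 held 46.4 to 79.2 FPKM each and the annotated ENSRNOT00000007367 held 13.8 to 17.4 FPKM. At 12 h ENSRNOT00000007367 held 48.7 to 61.4 FPKM and the other 3 held 0.782 to 6.24 FPKM. At 24 h replicates 1 and 2 resembled the 12 h libraries, with 36.4 to 59.9 FPKM for ENSRNOT00000007367, and replicate 3 did not, with 3.86 and 2.18 FPKM. MSTRG.24676.2 was at 29.0 and 31.7 FPKM in those 2 libraries and at 0.926 to 2.23 FPKM in the other 24 h libraries. Because ENSRNOT00000007367 has the highest mean of the Rbm3 transcripts, a gene level taken from it alone had the opposite sign, with log2 fold changes of 1.71 and 1.69 at 12 h and 0.26 and 0.32 at 24 h (limma adjusted p = 0.333 to 0.857). Without the 3 libraries this transcript was called higher in all 4 comparisons, at 1.73, 1.71, 1.30 and 1.70 (limma adjusted p = 0.000304 to 0.00119), and MSTRG.24676.2, MSTRG.24676.3 and MSTRG.24676.5 were called lower in all 4. The libraries were set aside because of this same division, so these calls at 24 h add no separate support.

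The annotated 9-exon transcript of Tra2b, ENSRNOT00000002429, was at 44.0, 54.1 and 23.6 FPKM in the control, 38.4 to 42.8 FPKM at 12 h and 24.2 to 39.8 FPKM at 24 h. MSTRG.5592.1, which shared both ends with it and had 1 exon and 276 bases more, was at 13.6, 9.12 and 19.8 FPKM in the control. It was at 3.56, 3.24 and 1.83 FPKM at 12 h after 5 Gy and at 2.82, 3.21 and 2.65 after 20 Gy. At 24 h it was at 11.7, 13.3 and 9.30 FPKM after 5 Gy and at 8.09, 8.91 and 9.83 after 20 Gy. All 12 h libraries were below the control, and both 24 h groups overlapped it. The log2 fold change was -1.94 ± 0.25 and -1.90 ± 0.25 at 12 h (limma adjusted p = 0.00111 and 0.0014), and the transcript was not called at 24 h. With the 3 libraries set aside the 12 h values were -1.68 and -1.64 (limma adjusted p = 0.0104 and 0.0115).

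The share of MSTRG.5592.1 in Tra2b was 23.0% ± 8.33 in the control, 6.70% ± 2.31 and 6.72% ± 0.416 at 12 h after 5 Gy and 20 Gy (exact permutation test, p = 0.1 for each), and 22.4% ± 2.96 and 19.6% ± 1.90 at 24 h (exact p = 0.9 and 0.6). Tra2b is known for an additional exon with stop codons through which its protein limits its own level, and the added 276 bases were not placed. Another transcript, MSTRG.5592.2, was listed at 0 in 12 libraries and at 20.3, 3.69 and 11.9 FPKM in replicate 3 of the control and of the 24 h groups after 5 Gy and 20 Gy. In these 3 libraries it took between 7.66% and 31.8% of the sum.

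Tra2a was spread over 16 transcripts of which 9 were tested. The share of a single transcript varied widely within groups, as for the annotated ENSRNOT00000012325 with 0% to 14.8% in the control and 1.17% to 47.9% at 12 h after 20 Gy. Of the 9, 3 were called at 24 h after 20 Gy. MSTRG.16744.6, with 7 exons, was at 4.29, 7.66 and 3.44 FPKM in the control and listed at 0 in all 3 libraries (limma adjusted p = 0.022). MSTRG.16744.10, with 9 exons, was at 3.95, 2.58 and 1.67 FPKM there and at 0 to 0.448 FPKM in the control (adjusted p = 0.00345). MSTRG.16744.15, with 6 exons, was at 1.41, 2.56 and 0.892 FPKM there and at 0 to 0.0501 FPKM in the control (adjusted p = 0.0239). MSTRG.16744.10 stayed called without the 3 libraries that stood apart (limma adjusted p = 0.0125), and MSTRG.16744.6 and MSTRG.16744.15 did not (adjusted p = 0.0953 and 0.0708). The 6-exon class made up 4.66% ± 3.22 of Tra2a in the control, 2.15% ± 1.49 and 1.68% ± 0.419 at 12 h, and 22.7% ± 3.56 and 21.5% ± 8.66 at 24 h, where it did not overlap the control (exact permutation test, p = 0.1 for each, the smallest possible). How often classes of all genes separate in this way was not computed. Within this class MSTRG.16744.12 and MSTRG.16744.15 were each listed at 0 in 8 libraries.

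The Clk4 transcripts of the wider assignment had 10 to 16 exons and changed in different directions. MSTRG.3577.4, with 12 exons, was at 2.79, 1.47 and 1.87 FPKM in the control, 3.67 to 5.87 FPKM at 12 h, and at 24 h 1.57 to 2.49 FPKM with 5 Gy and 0.535 to 0.684 FPKM with 20 Gy. It was called higher at 12 h (log2 fold change 0.95 ± 0.19 and 0.97 ± 0.19, limma adjusted p = 0.0157 and 0.0163) and lower at 24 h after 20 Gy (-0.88 ± 0.19, adjusted p = 0.00528). MSTRG.3577.2, with 16 exons, was at 0 to 0.237 FPKM in the control, 0 to 0.283 FPKM at 12 h and 1.38 to 3.41 FPKM at 24 h. It was called higher at 24 h with log2 fold changes of 1.59 ± 0.23 after 5 Gy and 1.40 ± 0.23 after 20 Gy (adjusted p = 0.000266 and 0.000674). Without the 3 libraries these 24 h calls of both transcripts held, and MSTRG.3577.4 was not called at 12 h (limma adjusted p = 0.0794 and 0.0814). The 10-exon MSTRG.3577.7 held 14.7% ± 0.258 of Clk4 in the control, and at 24 h 20.1% ± 1.63 with 5 Gy and 28.1% ± 1.25 with 20 Gy (exact permutation test, p = 0.1 for each).

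Of 11 other kinases of the CLK, SRPK and DYRK families 9 were tested. At 12 h 1 of the 9 (11.1%, beside 4.98% of all genes) was called higher and none lower after 5 Gy. After 20 Gy limma called 0, and 2 had an unadjusted p under 0.05. At 24 h 5 (55.6%) were higher and none lower after each dose, beside 20.5% and 17.0% of all genes called higher with 5 Gy and 20 Gy. The median log2 fold change of the 9 was 0.18 and 0.11 at 12 h, and 1.07 and 0.62 at 24 h, beside medians over all genes of 0.03, 0.01, -0.05 and -0.14. At 24 h after 20 Gy the log2 fold change was 1.14 ± 0.15 for Clk3, another CLK kinase, 1.15 ± 0.17 for Dyrk1a, 1.36 ± 0.11 for Dyrk2, 1.36 ± 0.15 for Dyrk3 and 0.61 ± 0.25 for Srpk2 (limma adjusted p = 5.75e-07 to 0.0475), and these were called. It was 0.00 ± 0.15 for Clk2, 0.00 ± 0.11 for Srpk1, 0.62 ± 0.89 for Dyrk1b and -0.30 ± 0.15 for Prpf4b, and these were not. Clk3 was the kinase called at 12 h, with 0.71 after 5 Gy.

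All 14 SR proteins, the substrates of these kinases, were tested. At 12 h 0 were higher and 1 lower (7.1%, beside 4.96% of all genes) after 5 Gy. After 20 Gy limma called 0, and 6 had an unadjusted p under 0.05. At 24 h 2 were higher and 5 lower after 5 Gy, and 2 higher and 4 lower after 20 Gy, with medians of -0.19 and -0.34. These were 14.3% higher and 35.7% lower with 5 Gy, beside 20.5% and 20.8% of all genes, and 14.3% and 28.6% with 20 Gy, beside 17.0% and 23.3%. Among the SR genes with a mean of at least 5 FPKM the largest falls at 24 h after 20 Gy were those of Srsf5, by 3.77 ± 0.13 on the log2 scale (limma adjusted p = 2.84e-10), and of Srsf6, by 2.65 ± 0.08 (adjusted p = 1.90e-10). Srsf4 was higher by 0.68 ± 0.08 (adjusted p = 9.14e-06).

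Among 19 tested hnRNP proteins, which bind nascent RNA and often oppose SR proteins, 0 were higher in any exposed group. With 5 Gy and 20 Gy 3 and 1 were lower at 12 h (15.8% and 5.3%, beside 4.96% and 3.64% of all genes). At 24 h 8 and 7 were lower (42.1% and 36.8%, beside 20.8% and 23.3% of all genes). Among those with a mean of at least 5 FPKM, Hnrnpm (log2 fold change -1.68 ± 0.10) and Hnrnpab (-1.28 ± 0.08) fell most at 24 h after 20 Gy. Of 27 other tested RBM proteins, the wider family of RNA-binding motif proteins, 2 and 1 rose and none fell at 12 h with 5 Gy and 20 Gy. These rises were 7.4% and 3.7%, near the 4.98% and 4.90% of all genes. At 24 h 11 and 10 rose and 3 and 4 fell. The rises at 24 h were 40.7% and 37.0%, beside 20.5% and 17.0% of all genes, and the falls 11.1% and 14.8%, beside 20.8% and 23.3%. Among those with a mean of at least 5 FPKM, Rbm38 (2.63 ± 0.15) and Rbm15 (2.44 ± 0.13) rose most at 24 h after 20 Gy, and Rbm14 (-1.54 ± 0.09) and Rbmx (-1.50 ± 0.12) fell most (all limma, adjusted p under 0.05). Of 5 tested cold shock domain proteins none was higher in any group. At 12 h 0 were lower with 5 Gy and 1 with 20 Gy (20.0% of the 5, beside 3.64% of all genes). With 5 Gy and 20 Gy 3 and 2 were lower at 24 h (60.0% and 40.0% of the 5, beside 20.8% and 23.3% of all genes), among them Ybx2 at -0.95 ± 0.15 with 20 Gy.

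Of 14 tested heat shock chaperones, 0 were higher and 1 lower (7.1%, beside 4.96% of all genes) at 12 h after 5 Gy. After 20 Gy limma called 0 at 12 h, and 4 had an unadjusted p under 0.05. At 24 h 10 (71.4%) were higher after 5 Gy and 12 (85.7%) after 20 Gy, beside 20.5% and 17.0% of all genes, and none was lower. The median log2 fold change of the 14 was -0.03 and 0.02 at 12 h, and 1.62 and 2.75 at 24 h. At 24 h after 20 Gy Hspa1b, an inducible HSP70, was higher by 8.76 ± 0.14 and Hsph1, a cofactor of HSP70, by 6.19 ± 0.15 on the log2(FPKM + 1) scale (limma adjusted p = 4.26e-13 and 2.58e-11). Of 10 factors of nonsense-mediated decay, the pathway that removes mRNAs with early stop codons, limma called 0 at 12 h (1 with an unadjusted p under 0.05 after each dose) and 3 were higher and 1 lower at 24 h after each dose (30.0% and 10.0%, beside 20.5% and 20.8% of all genes with 5 Gy and 17.0% and 23.3% with 20 Gy), with Upf2 (1.42 ± 0.09) and Smg1 (1.24 ± 0.12) higher and Smg5 (-1.56 ± 0.13) lower after 20 Gy.

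The genes whose log2(FPKM + 1) followed each member most closely were taken from 9554 gene sums with a mean of at least 5 FPKM over the 15 libraries. These correlations describe libraries that share groups, and carry no test. For Clk1 they were Fas (r = 0.992), a death receptor induced by p53, Cdc40 (0.988), a splicing factor, and Spart (0.987). Fas was at a mean of 6.50 FPKM in the control, 18.9 and 19.0 FPKM at 12 h and 45.5 and 42.6 FPKM at 24 h. For Rbm3 they were Mcm6 (0.961), a subunit of the replicative helicase, Dcn (0.956), a fibroblast marker, and Cyp51 (0.953), an enzyme of cholesterol synthesis. Mcm6 was at 34.7 FPKM in the control, 7.57 and 9.19 at 12 h and 5.21 and 5.15 at 24 h. Dcn was at 195 FPKM in the control, 116 and 111 at 12 h and 82.3 and 82.8 at 24 h.

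For Cirbp in the wider assignment the nearest genes were the unnamed locus MSTRG.21917 (r = 0.965), B9d1 (0.964) and Xrcc5 (0.961), which encodes the Ku80 subunit of DNA end joining. For Clk4 they were Stam2 (0.960), Bod1l1 (0.955) and Zfp263 (0.951). For Tra2b they were Nup62 (0.933), a nuclear pore protein, Apex1 (0.929), an enzyme of base excision repair, and Fhl3 (0.926). Nup62 was at 37.4 FPKM in the control, 20.4 and 22.6 at 12 h, and 27.4 and 21.8 at 24 h. For Tra2a, whose groups overlapped, the highest values were lower, with Sdcbp (0.803), Akap12 (0.743) and Il1r1 (0.737).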

How the data were processed

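The authors deposited 1 table of FPKM values per transcript for 15 poly-A libraries. Per the paper's methods and the labels, reads were aligned to Rnor_6.0 with HISAT2 (version 2.0.13) and assembled and quantified with StringTie, and transcripts outside the annotation have assembler names. No read counts were used here, so depth was read from the steps between low FPKM values (85.7% to 88.1% whole multiples within 0.1 step). The submitters' processing notes also name Trimmomatic, FastQC and kallisto. FPKM values were summed per gene, and 4738 unnamed transcripts of loci with several names were left out. Genes and transcripts with a mean of at least 0.5 FPKM were tested with limma 3.58.1 (R 4.3.3, trend, 1 mean per group, 10 residual degrees of freedom) on log2(FPKM + 1), which understates changes of low genes. The fit was tested on simulated data. Members and gene lists were chosen with earlier results of these data known. Named genes were the 6 genes and their tested transcripts, for each gene the 3 with the highest correlation, every tested kinase, and from each other list up to 2 rises and 2 falls called at 24 h after 20 Gy with a mean of at least 5 FPKM. The wider assignment, the sum over spans and the setting aside of 3 libraries were chosen after seeing the data. Same-numbered replicates did not deviate together over all pairs of groups, though their correlation was positive between the 2 doses at 12 h and at 24 h. The main fit did not pair the libraries. Alternatives were another pseudocount, other filters, quantile normalization, rescaling to TPM, a fit without trend or of only the groups compared, a replicate block, a fold threshold of 2, the highest transcript, and leaving out libraries.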

Additional observations from a re-analysis of the deposited data

How the results depend on the processing

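Of 879 values recomputed under the alternatives, 819 kept their direction and their side of the threshold or stayed within 1.5 times of a count, and 38 turned their sign, of which those of called values were all of Rbm3 against control under its highest transcript. The cause of the changes was not tested. A fold threshold of 2 left 1 called gene (Clk1) of the 4 at 12 h after 5 Gy and 1 after 20 Gy, with Rbm3 at -0.84 and -0.90 under it. Taking the transcript with the highest mean FPKM for each gene left 1 called gene in each of the 4 comparisons with control. Its log2 fold changes, in the order 5 Gy and 20 Gy at 12 h and then at 24 h, were 1.71, 1.69, 0.26 and 0.32 for Rbm3 and 0.97, 0.70, 0.47 and 0.45 for Tra2a, and for Tra2b 0.0685 and 0.0624 at 12 h. From 12 h to 24 h it gave Tra2b -0.0806 with 5 Gy, -0.31 with 20 Gy and -0.20 over both, and for 20 Gy against 5 Gy at 12 h Clk1 0.14 and Tra2a -0.28. The wider assignment and the sum over spans, both added after seeing the data, each gave 4 called genes at 24 h with either dose and 2 from 12 h to 24 h with 5 Gy, 20 Gy and over both.

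Quantile normalization gave 0.0323 for Rbm3 from 12 h to 24 h after 20 Gy, and between doses 0.0006 for Tra2b at 12 h, -0.0174 for Clk1 and 0.033 for Tra2a at 24 h. Rescaling to TPM gave Tra2a 0.0044 at 12 h after 20 Gy and 0.0882 from 12 h to 24 h after 5 Gy, and Clk1 -0.0446 between doses at 24 h. The median of all genes at 24 h after 20 Gy was -0.14, and -0.03 and -0.07 under these scalings. Without 1 library, Tra2a ranged from -0.25 to 0.13 at 12 h after 20 Gy (0.13 also in 12 libraries) and from -0.11 to 0.14 from 12 h to 24 h after 5 Gy. Between doses at 12 h the ranges were -0.13 to 0.0159 for Rbm3, -0.0827 to 0.0081 for Clk1, -0.0123 to 0.31 for Tra2a and -0.0371 to 0.0168 for Tra2b, and at 24 h -0.0025 to 0.23 for Rbm3, -0.0872 to 0.11 for Clk1 and -0.20 to 0.052 for Tra2a. Called transcripts at 12 h after 20 Gy ranged from 4 to 8.

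Over all pairs of groups same-numbered libraries did not deviate together (r of -0.177 to 0.232 over 30 pairs, over 0.1 in 4). For libraries of different numbers r was -0.209 to 0.203 over 60 pairs, over 0.1 in 9. Between the 2 doses at the same time the r of same-numbered libraries was positive. At 12 h their r was 0.161, 0.045 and 0.232, beside -0.192 to 0.056 for libraries of different numbers. At 24 h it was 0.155, 0.064 and 0.083, beside -0.102 to 0.022. Deviations from a group mean sum to 0, so the values for same and different numbers are not independent. With a replicate block 1748 genes of the table were called at 12 h after 5 Gy, beside 1779 without it, and the called members stayed 2, 2, 2 and 2 in number against control, 1, 1 and 1 from 12 h to 24 h and 0 and 0 between doses. Depth limited the lowest transcripts, and a value listed at 0 may be an assembler's allocation.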

Other observations

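The gene next to Cirbp, RGD1562114, and transcripts joining both were measured at the same locus. Its named transcript was at 6.79, 6.07 and 6.84 FPKM in the control and at 5.06 to 7.67 FPKM in the 12 h libraries. At 24 h it was at 0.290, 4.84 and 3.92 FPKM after 5 Gy and at 6.20, 6.99 and 4.20 FPKM after 20 Gy. MSTRG.20739.6, a 10-exon transcript from Cirbp into RGD1562114, was at 6.20, 6.54 and 8.31 FPKM in the control, 7.50 to 15.6 FPKM at 12 h and 0 to 1.58 FPKM at 24 h. Its log2 fold change at 24 h was -2.04 ± 0.26 after 5 Gy and -2.65 ± 0.26 after 20 Gy (limma adjusted p = 0.00011 and 1.54e-05). MSTRG.20739.11, a shorter 10-exon transcript over the same stretch, was listed at 0 in the control and at 0.932 to 1.88 FPKM at 12 h and 1.59 to 6.59 FPKM at 24 h. It was called higher at 24 h after 5 Gy and 20 Gy (adjusted p = 0.000625 and 6.24e-05).

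MSTRG.21917, the unnamed locus nearest to Cirbp in its pattern, was at a mean of 230 FPKM in the control, 95.8 and 133 FPKM at 12 h, and 3.73 and 13.8 FPKM at 24 h after 5 Gy and 20 Gy.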
